A study of Rattus norvegicus with 10 samples.

Results

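The 151 rat genes described here are microRNA loci, that is, rows of an RNA-seq table whose symbol begins with Mir and a digit or with Mirlet7, out of 16041 rows in all. They were chosen by symbol alone. The values are reads over the precursor hairpin or over the longer transcript that contains it, and not mature microRNA. The libraries were made from prefrontal cortex of 5 early life stress (ELS) and 5 control male Sprague-Dawley rats, 1 library per tissue sample. ELS rats were raised under limited nesting from postnatal day 2 to 9, the labels give no treatment for controls, and tissue of both groups was taken at postnatal day 91. No transgene or mutant allele is named for either group, and which rats shared a litter is not given, so p-values speak of the spread among these libraries alone. The question set by the design is whether the loci differed in adult cortex after stress in early life.

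MicroRNAs are short RNAs that guide Argonaute proteins to messenger RNAs with a match to the seed, the stretch from base 2 to base 8 of the mature strand. They begin as long primary transcripts, often introns of a protein-coding host gene or a noncoding RNA. The nuclear enzyme Drosha cuts out the hairpin and the cytoplasmic enzyme Dicer cuts the hairpin into its mature strands. Several microRNAs are abundant in cortex, among them miR-124 in neurons and the let-7 family. A library built from polyadenylated RNA does not capture the mature strand, and a read over a locus comes from a primary transcript, a retained intron, an overlapping RNA or residual precursor.

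The RefSeq sequences of build GRCr8 were set beside the counted stretches. All 151 loci matched a RefSeq gene by symbol or synonym, 136 had a hairpin sequence and 139 had a mature one. The gene models behind the values were 44 to 134 bases long (median 92, against 2079 over all genes). Of 147 loci with a length, 132 had exactly the length of the RefSeq hairpin. Mir770 did not: its model had 94 bases and its hairpin 76, so the sequence printed for it is shorter than the counted stretch. The 3 hairpins with the lowest unadjusted p among loci of at least 50 reads follow, and that of the locus with the most reads, each 5′ to 3′ with the annotated mature strands in capitals.
Mir186: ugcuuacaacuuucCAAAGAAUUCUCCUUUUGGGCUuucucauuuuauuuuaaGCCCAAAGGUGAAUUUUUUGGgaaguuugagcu
Mir7a-1: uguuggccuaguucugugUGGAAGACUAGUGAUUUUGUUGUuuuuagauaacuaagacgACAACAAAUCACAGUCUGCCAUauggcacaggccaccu
Mir2985: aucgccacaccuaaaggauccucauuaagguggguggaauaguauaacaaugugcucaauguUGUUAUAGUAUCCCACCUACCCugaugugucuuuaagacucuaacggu
Mir770: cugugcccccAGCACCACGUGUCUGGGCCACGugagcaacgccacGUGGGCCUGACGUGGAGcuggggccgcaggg

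The 2 Mir138 hairpins are shown because they carry an identical 5p strand in different stems, and their reads differed.
Mir138-1: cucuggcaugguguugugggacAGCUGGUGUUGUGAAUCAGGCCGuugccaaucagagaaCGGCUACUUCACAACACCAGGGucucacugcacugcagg
Mir138-2: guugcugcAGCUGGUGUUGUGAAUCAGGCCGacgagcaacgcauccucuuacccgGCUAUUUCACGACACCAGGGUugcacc

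The mature strands below, with the seed in capitals, show which loci supply the same seed. Mir7a-1 and Mir7a-2 both encode miR-7a-5p, and Mir7b differs from it outside the seed. Mir132 and Mir212 share another seed, and 3 let-7 loci are given for the seed that 6 listed let-7 loci share.
rno-miR-186-5p: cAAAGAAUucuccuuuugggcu
rno-miR-7a-5p: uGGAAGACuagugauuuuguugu
rno-miR-7b: uGGAAGACuugugauuuuguugu
rno-miR-2985: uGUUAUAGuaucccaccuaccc
rno-miR-22-3p: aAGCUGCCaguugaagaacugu
rno-miR-138-5p: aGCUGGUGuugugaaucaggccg
rno-miR-132-3p: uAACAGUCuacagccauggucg
rno-miR-212-3p: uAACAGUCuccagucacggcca
rno-let-7b-5p: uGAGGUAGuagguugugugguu
rno-let-7c-5p: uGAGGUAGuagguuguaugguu
rno-let-7d-5p: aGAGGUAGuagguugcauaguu
rno-miR-3074: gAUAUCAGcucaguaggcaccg
rno-miR-9b-5p: uUCGGUUAucuagcuuuau
Over all loci, the 238 mature strands held 205 different seeds, of which 23 were shared by several loci.

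Whole reads could be recovered from the deposited values, and library totals were 18838898 to 22311136 reads. The share of reads in listed genes was 71.8% to 73.7% in ELS libraries, where ELS replicate 2 was lowest, and 71.1% to 72.4% in control libraries. Control replicate 4 stood apart from the others: a fit that weights libraries gave it a weight of 0.17, the lowest of the 10. Most lists of cell-type markers also moved with the groups. All 5 oligodendrocyte, 5 astrocyte, 5 microglial and 4 measured blood markers had a lower fitted mean in ELS, and 4 of 5 neuronal markers a higher one. The neuronal exception was Map2 (log2 fold change -0.53, p 0.00183 by limma). The 3 measured endothelial markers were lower with a median of -0.05, and their summed RPKM overlapped, 17.9 to 21.0 in ELS against 17.1 to 21.5 in control libraries. Of 2 measured choroid plexus markers, 1 was tested (-0.02). None of these markers had an adjusted p under 0.05. Summed RPKM was 763 to 992 in ELS against 1008 to 2077 in control libraries for oligodendrocytes, and 1411 to 1615 against 1124 to 1394 for neurons. The sums were 718 to 784 against 832 to 1032 for astrocytes, 53.0 to 64.4 against 59.6 to 71.6 for microglia and 214 to 438.0 against 412 to 981 for blood. In bulk tissue, fewer cells of a type and less RNA per cell cannot be told apart, and the part of these shifts in the values below was not tested.

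Reads over microRNA loci were few and were concentrated in 1 locus. All loci together held 19495 reads over the 10 libraries, of which Mir770 alone held 9655 (49.5%) and the 10 loci with the most reads 72.7%. The median locus had 14 reads in all 10 libraries together, 61 loci had under 10, and 14 had a single read. Mir185, Mir3562, Mir3573 and Mir376c were listed at 0 in every library. Reads were present in every library for 57 loci. Scaled to library total (RPM), the loci together held 96.5 ± 4.66 RPM in ELS and 94.6 ± 12.1 RPM in control libraries (SD, n = 5 each), a difference smaller than the spread. Without Mir770 the values were 46.1 ± 2.23 RPM in ELS and 50.2 ± 6.32 RPM in control libraries, and control replicate 4 was highest at 60.5 RPM. The number of loci with any read was 96 to 105 in ELS and 98 to 113 in control libraries, so the groups overlapped.

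**Figure D1:**
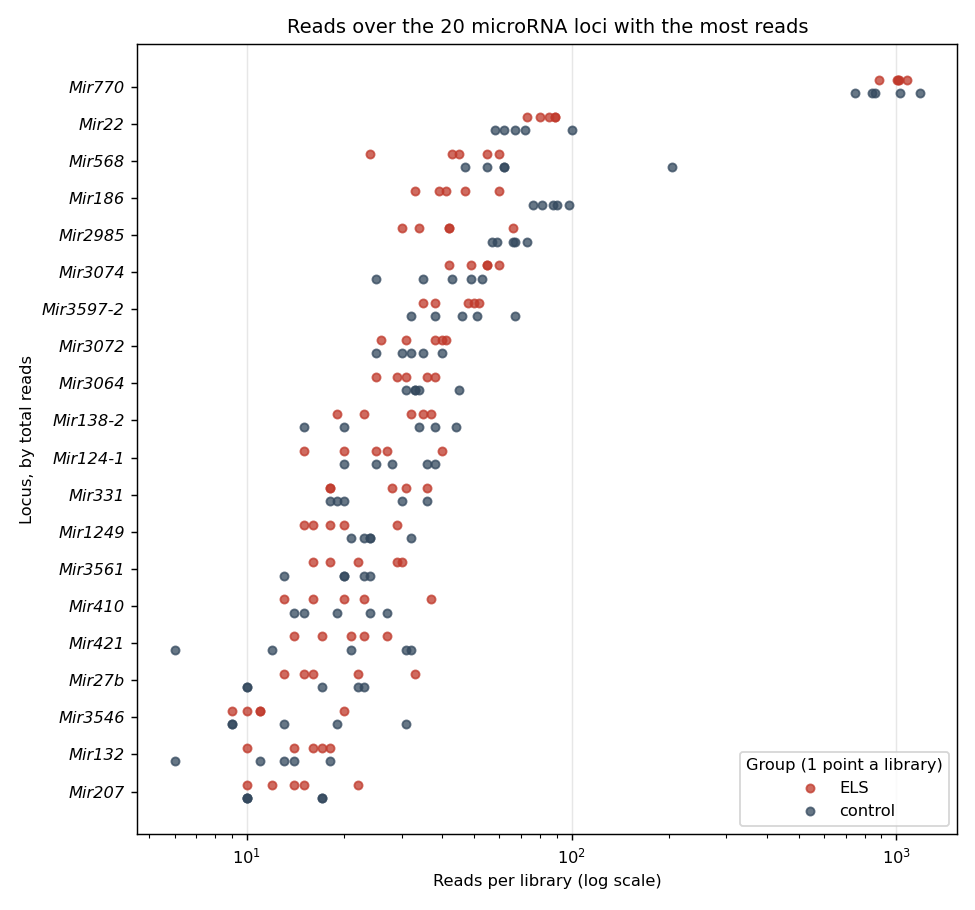
Reads per library (log scale) over the 20 loci with the most reads, in order of total reads, 1 point a library, ELS above control at each locus. Mir770 lies far to the right of the others, Mir186 is the one locus of the 20 whose groups do not overlap, and Mir568 has a single control library at 204 reads.

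Mir770 lies within the span and on the strand of Meg3, the maternally expressed noncoding RNA of the imprinted Dlk1-Dio3 region. It had the highest level per length of all loci, a mean of 504 RPKM (reads scaled by model length and library total). The next were Mir22 at 40.1, Mir186 at 37.1, Mir568 at 32.9 and Mir3064 at 24.6 RPKM. The gaps from Mir22 to Mir186 and from Mir186 to Mir568 were each smaller than the SD of Mir186 in ELS libraries, given below. The gap from Mir568 to Mir3064 was smaller than the SD of Mir568 in control libraries, which rests on control replicate 4, and larger than their other SDs. In replicate order, Mir770 (ENSRNOG00000040384) had 551, 500.3, 573, 508 and 545 RPKM in ELS libraries, against 388, 495, 450.0, 565 and 466 RPKM in control libraries. All ELS libraries were above control replicates 1, 2, 3 and 5, and control replicate 4 lay within the ELS range. The means were 535 ± 30.5 in ELS and 472 ± 64.6 RPKM in control libraries (SD, n = 5 each), a log2 fold change of 0.19 ± 0.09 (SE) with an unadjusted p of 0.0543 and an adjusted p of 0.254 by limma. Without control replicate 1 it was 0.12, and over all replicates left out in turn it was 0.12 to 0.26 with an adjusted p of 0.102 to 0.424. Meg3 was not analysed here.

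The other loci of the Dlk1-Dio3 region had little signal beside Mir770. Of the 19 others on the list of this region, 18 were above 0, and their reads summed to 649 with a median of 8. Of the 10 that were tested, 7 had a higher and 3 a lower mean in ELS, 0 with an unadjusted p under 0.05 by limma against 20.4% of all genes tested, and their median log2 fold change was 0.10. Mir410 had 13 to 37 reads in ELS libraries, with a median of 20, and 14 to 27 in control libraries, with a median of 19. Mir3072, which the list does not include, had 41, 26, 40, 31 and 38 reads in ELS libraries, against 40, 30, 32, 35 and 25 in control libraries, and the groups overlapped throughout (log2 fold change 0.18 ± 0.15, p 0.234, and 0.12 without ELS replicate 1 or control replicate 5).

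The comparison of ELS with control could be made for 94 loci (62.3%, against 91.6% of other genes), those that reached 0.5 RPKM in 5 or more libraries. Of the 57 not tested, 53 had reads. Because 1 read over 100 bases was worth 0.448 to 0.531 RPKM, a locus passed with about 1 read in each of 5 libraries. Mir7578 stood just inside with 7 reads in all (mean 0.422 RPKM). Mir7b stood just outside with 14 reads (mean 0.635 RPKM), since its longer model needs more than 1 read per library.

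No microRNA locus passed the threshold of 0.05 on p adjusted over all 14642 genes tested (0 of 94, lowest adjusted p 0.133, limma), and no gene of the table did (0% called). limma-voom on the recovered reads also called 0 loci, and with library weights it called 2, Mir186 and Mir770. At an unadjusted p under 0.05 there were 9 of 94 loci, or 9.57%, against 20.4% of all genes tested. The libraries of the 2 groups did not overlap for 1 locus, Mir186, or 1.06%, against 5.68% of all genes tested. Loci with a higher mean in ELS numbered 45 and those with a lower one 49, and the median log2 fold change was -0.06, against 0.00 over all genes tested.

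The precision differed with read number. The median SE of the log2 fold change was 0.48 for the loci and 0.10 over all genes tested. For the 31 loci with a mean of at least 10 reads per library it was 0.27, and for the 63 tested loci below that it was 0.70. Among those 31 loci, 19 had a higher and 12 a lower mean in ELS, with a median of 0.11. An unadjusted p under 0.05 by limma was found for 4 of the 31, against 20.4% of all genes tested.

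**Figure D2:**
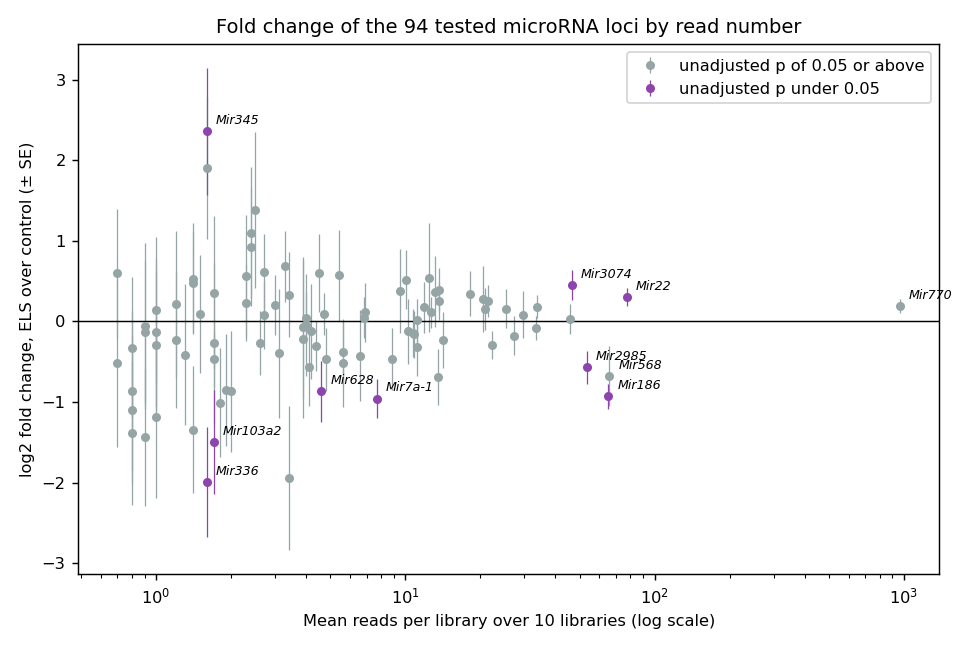
Log2 fold change of ELS over control (± SE) for the 94 tested loci against mean reads per library (log scale), with the 9 loci of unadjusted p under 0.05 in purple. Error bars shorten to the right, and the largest fold changes belong to loci with fewer than 10 reads per library, such as Mir345 at 2.36 and Mir336 at -1.99.

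Mir186 (ENSRNOG00000035617) had the lowest p of all loci and lies within Zranb2 on the same strand. Zranb2 encodes a zinc finger protein of the splicing machinery. Mir186 had 47, 60, 39, 33 and 41 reads in ELS libraries, against 90, 88, 81, 98 and 76 in control libraries. Every ELS library was below every control library, and ELS replicate 2 came closest. Per length this was 26.0 ± 7.08 RPKM in ELS and 48.2 ± 2.82 RPKM in control libraries (SD, n = 5 each), a log2 fold change of -0.93 ± 0.15 (SE, p 0.000113, adjusted p 0.133). Without ELS replicate 2 the log2 fold change was -1.07 with an adjusted p of 0.00675 by limma. That fit called 440 genes over the whole table. Over all replicates left out in turn the adjusted p of Mir186 was 0.00675 to 0.293.

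The host gene had 68.4 ± 1.78 RPKM in ELS and 70.4 ± 2.41 RPKM in control libraries (SD, n = 5 each). Zranb2 had 67.4, 71.1, 66.3, 68.2 and 69.0 RPKM in ELS libraries, against 67.9, 68.9, 74.2, 70.8 and 70.2 RPKM in control libraries. The groups overlapped between 67.9 and 71.1 RPKM. The log2 fold change of Zranb2 was -0.04 ± 0.04 (SE, p 0.285). The level per length over Mir186 was 53.4% of that over the Zranb2 gene model, averaged over libraries. The difference between the fold changes of locus and host was not tested.

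Mir7a-1 (ENSRNOG00000035613) had the second lowest p, on far fewer reads. It lies within Hnrnpk, which encodes an RNA-binding protein of the heterogeneous nuclear ribonucleoprotein family, on the same strand. miR-7 is known from neuroendocrine cells and from its many binding sites on the circular RNA Cdr1as. Mir7a-1 had 3, 4, 4, 9 and 6 reads in ELS libraries, against 8, 12, 9, 13 and 9 in control libraries. ELS replicate 4, with 9 reads, was level with the lower control libraries, and the other ELS libraries were below all of them. The mean was 2.67 ± 1.13 RPKM in ELS and 5.01 ± 0.791 RPKM in control libraries (log2 fold change -0.96 ± 0.24 SE, p 0.0025, adjusted p 0.133).

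Hnrnpk was level in both groups, with 42.7 to 44.6 RPKM in ELS and 41.6 to 45.3 RPKM in control libraries and a log2 fold change of 0.00 ± 0.03 (p 0.998). Mir7a-2, which encodes the same miR-7a-5p strand elsewhere in the genome, had 5, 2, 4, 2 and 2 reads in ELS libraries, against 7, 6, 6, 6 and 1 in control libraries. Control replicate 5, with 1 read, was the lowest library, and the other control libraries were above every ELS library. Its log2 fold change was -0.56 ± 0.48 (p 0.271), and -1.03 without control replicate 5 (adjusted p 0.119). Mir7b, the third locus with this seed, had 1, 2, 3, 2 and 1 reads in ELS libraries, against 1, 1, 2, 0 and 1 in control libraries, and was not tested.

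Mir2985 (ENSRNOG00000047006) lies in the span of Gria2, which encodes the GluA2 subunit of AMPA-type glutamate receptors. The strand of Gria2 is not in the reference used. It had 42, 66, 30, 34 and 42 reads in ELS libraries, against 67, 59, 57, 66 and 73 in control libraries. ELS replicate 2 lay among the control libraries, and the other 4 ELS libraries were below all of them. The mean was 19.8 ± 7.25 RPKM in ELS and 28.2 ± 3.68 RPKM in control libraries (log2 fold change -0.57 ± 0.20 SE, p 0.0188, adjusted p 0.174). Without ELS replicate 2 the log2 fold change was -0.76 and the adjusted p 0.0271 by limma, in the fit that called 440 genes over the whole table. Gria2 itself had 91.96, 97.8, 88.5, 94.8 and 92.9 RPKM in ELS libraries, against 97.9, 98.5, 94.9, 112 and 101 RPKM in control libraries, with overlap (log2 fold change -0.11 ± 0.05, p 0.0421, adjusted p 0.229). ELS replicate 2 was thus the highest ELS library for Mir186, Zranb2, Mir2985 and Gria2, and it had the lowest share of reads in listed genes among ELS libraries.

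**Figure D3:**
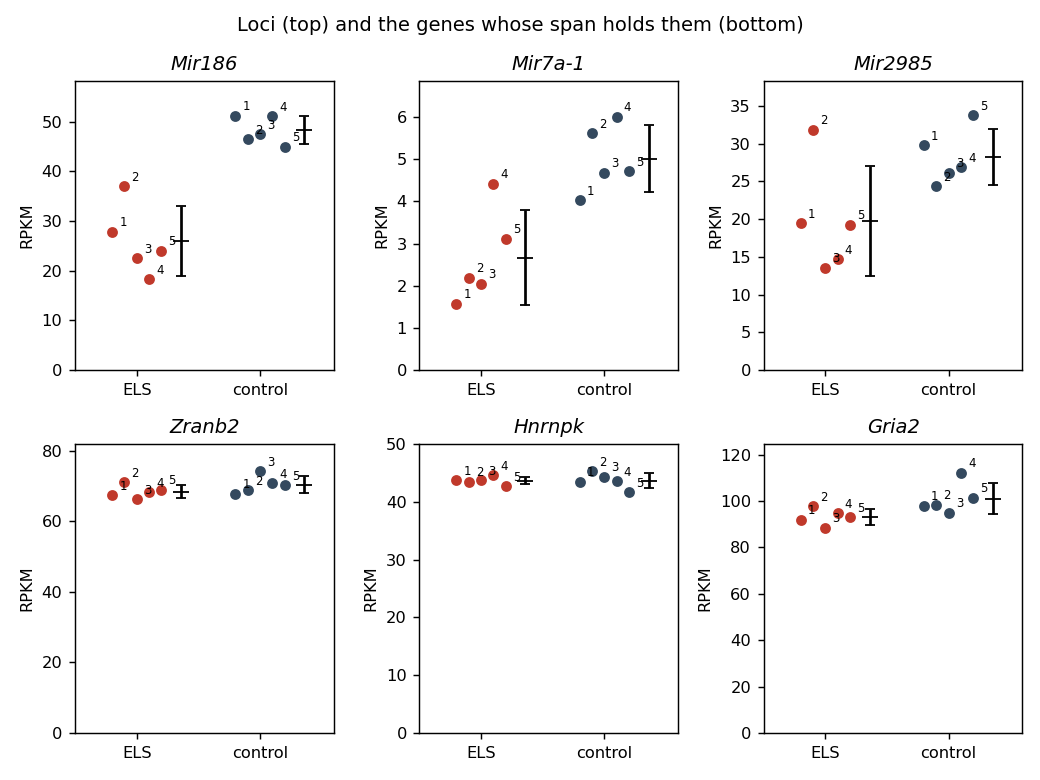
RPKM of Mir186, Mir7a-1 and Mir2985 (top) and of Zranb2, Hnrnpk and Gria2, whose spans hold them (bottom), 1 numbered point a library, with mean and SD as bars. Each locus has a lower mean in ELS, such as 26.0 against 48.2 for Mir186. The points of Hnrnpk lie level, and those of Zranb2 and Gria2 overlap between the groups.

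Fold changes of locus and same-strand host had the same sign in 10 of the 22 pairs in which both were tested, which come from 21 loci. A sign says little where the host was within its SE of 0, as at Hnrnpk (0.00 ± 0.03), Dalrd3 (-0.02 ± 0.06) and Wdr82 (-0.01 ± 0.06). It also says little where the locus had few reads. Whether loci follow their hosts was not tested. A same-strand host was annotated for 76 loci and was itself listed for 34. A further 21 lay in the span of a gene where the strand of locus or gene was not given. Another 19 lay only within genes of the opposite strand, and 35 lay in no gene's span. In the 22 same-strand pairs the locus had a median of 12.0% of the host's RPKM, with a range of 0.343% to 1731%, and exceeded the host in 2 pairs. Among tested pairs in other spans, the sign was the same in 4 of 6 with no strand given and in 6 of 7 on the opposite strand.

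Mir3064 lies within Ddx5, a helicase of the complex around Drosha. It had 38, 29, 31, 25 and 36 reads in ELS libraries, against 34, 33, 45, 33 and 31 in control libraries. The groups overlapped and control replicate 3 was highest. The mean was 24.0 ± 4.32 RPKM in ELS and 25.3 ± 4.89 RPKM in control libraries. Its log2 fold change was -0.08 ± 0.15 (p 0.599), beside -0.01 ± 0.04 for Ddx5 at 190 ± 4.75 RPKM in ELS and 191 ± 8.74 RPKM in control libraries.

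Mir22, a broadly expressed microRNA whose locus lay in no other gene's span, and Mir3074 were the loci with more reads in ELS and an unadjusted p under 0.05 on at least 10 reads per library. Mir22 (ENSRNOG00000035620) had 85, 73, 89, 89 and 80 reads in ELS libraries, against 62, 100, 58, 67 and 72 in control libraries. Control replicate 2 was above all ELS libraries and the other control libraries were below all of them. The mean was 44.0 ± 2.37 RPKM in ELS and 36.1 ± 7.20 RPKM in control libraries (log2 fold change 0.30 ± 0.11 SE, p 0.0221, adjusted p 0.183). Mir3074 had 55, 42, 60, 49 and 55 reads in ELS libraries, against 25, 49, 53, 43 and 35 in control libraries, with overlap (0.45 ± 0.18, p 0.031, adjusted p 0.204). Without control replicate 1 the log2 fold change of Mir3074 was 0.29.

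Mir568 lies in the span of Zbtb20, a transcription factor gene, with no strand given. It had 24, 43, 55, 45 and 60 reads in ELS libraries, against 47, 62, 62, 204 and 55 in control libraries. Control replicate 4 was far above every other library, and the rest overlapped. The mean was 23.8 ± 7.17 RPKM in ELS and 42.0 ± 29.9 RPKM in control libraries. The log2 fold change was -0.67 ± 0.37 (p 0.0977), and -0.33 without control replicate 4. The listed Zbtb20 model was below the filter, with 0.156 ± 0.145 RPKM in ELS and 0.437 ± 0.148 RPKM in control libraries. Control replicate 4 held the highest level of 25 of the 94 tested loci, more than any other library.

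The largest fold changes came from loci with very few reads. Mir345 had 3, 3, 3, 2 and 1 reads in ELS libraries, against 0, 3, 0, 0 and 1 in control libraries (log2 fold change 2.36 ± 0.79, p 0.0129). Mir336, in the span of the kinase gene Mapk9 with no strand given, had 1, 1, 1, 0 and 0 reads in ELS libraries, against 4, 4, 1, 3 and 1 in control libraries (-1.99 ± 0.68, p 0.0151). Mir103a2, within the pantothenate kinase gene Pank2 on the same strand, had 1, 1, 0, 1 and 1 reads in ELS libraries, against 5, 1, 3, 1 and 3 in control libraries (-1.50 ± 0.64, p 0.0417, and -0.94 with p 0.0711 without ELS replicate 3). Groups overlapped at each of these, and no library had more than 5 reads. Mir34a, a known target of p53, had 4, 3, 1, 1 and 2 reads in ELS libraries, against 0, 0, 3, 0 and 2 in control libraries (1.90 ± 0.89, p 0.0563). With a pseudocount of 1 in place of 0.1 RPKM the log2 fold changes were 0.77 for Mir345, -0.75 for Mir336, -0.69 for Mir103a2 and 0.55 for Mir34a. Mir628, within Ccpg1 and named after its values were seen, completed the 9 loci of low p with 2 to 5 reads in ELS and 3 to 13 in control libraries (-0.87 ± 0.38, p 0.0444).

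Of the loci numbered as copies of miR-138, miR-124 and Mir3597, 1 copy held most of the reads in each case. miR-138 is known from rat hippocampal neurons as a regulator of dendritic spines. Mir138-2, within the span of the sodium-chloride cotransporter gene Slc12a3, had 35, 19, 32, 37 and 23 reads in ELS libraries, against 34, 44, 38, 20 and 15 in control libraries. Mir138-1 had 7, 14, 9, 6 and 14 reads in ELS libraries, against 6, 13, 13, 14 and 11 in control libraries. Per length Mir138-2 stood at 17.8 ± 4.35 RPKM in ELS and 17.6 ± 7.06 RPKM in control libraries, and Mir138-1 at 5.13 ± 2.08 RPKM in ELS and 5.51 ± 1.47 RPKM in control libraries. The groups overlapped at both loci (p 0.779 for Mir138-2 and 0.643 for Mir138-1). Mir138-2 was above Mir138-1 in all 10 libraries. The Slc12a3 model held 0.986 ± 0.09 RPKM in ELS and 1.06 ± 0.325 RPKM in control libraries, so the locus exceeded its host.

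The loci of miR-124, the neuronal microRNA, were named for this family after their values were seen. Mir124-1 had 15 to 40 reads in ELS libraries and 20 to 38 in control libraries. Mir124-2 had 9 to 16 reads in ELS and 3 to 20 in control libraries, and Mir124-3 had 0 to 2 in ELS and 1 to 3 in control libraries. Over all libraries the totals were 274, 131 and 14 reads, and none of the 3 had an unadjusted p under 0.05 (0.475, 0.423 and 0.116).

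Mir3597-2, Mir3597-1 and Mir3597-3 lie opposite Mir9-2, Mir9-1 and Mir9-3 in RefSeq, on the other strand. Mir3597-2 had 50, 48, 38, 52 and 35 reads in ELS libraries, against 51, 32, 46, 67 and 38 in control libraries. Mir3597-1 had 6 to 12 reads in ELS and 6 to 19 in control libraries, and Mir3597-3 had 0, 6, 3, 2 and 0 in ELS libraries, against 4, 5, 4, 6 and 4 in control libraries. Groups overlapped at all 3, and the log2 fold changes were 0.03 ± 0.19, -0.16 ± 0.30 and -1.95 ± 0.89 (p 0.053 for Mir3597-3). Mir3597-3 was at 0 in ELS replicates 1 and 5.

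**Figure D4:**
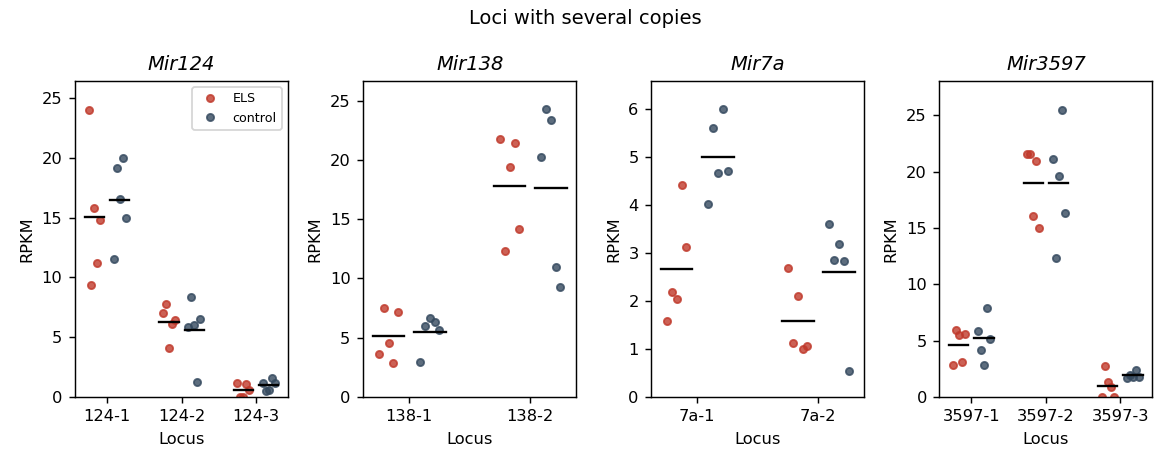
RPKM of the loci of 4 microRNAs with several copies, 1 point a library, ELS left of control at each locus, with the mean as a line. Mir124-1, Mir138-2 and Mir3597-2 stand well above their sister loci in both groups, and at Mir7a-1 the mean is 2.67 in ELS against 5.01 RPKM in control libraries.

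Such overlaps touch more of the loci. In RefSeq, 19 loci overlapped another microRNA gene, none of which was itself listed, and these 19 held 1679 reads with a median of 34, against a median of 13 for the other 132. Of the 14 tested, 5 had a higher and 9 a lower mean in ELS. Mir3074 overlaps Mir24-1, a member of the Mir23b cluster within Aopep. The libraries were made with a strand-marking kit, but no source used here gives the strand setting of the counting, so reads of the 2 partners cannot be told apart at these loci.

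Loci known for a tissue or family are counted here as groups. Of 17 listed loci enriched in brain, 12 were tested, with 3 higher and 9 lower in ELS, a median of -0.20, and 1 (Mir7a-1, or 8.33%) at an unadjusted p under 0.05, against 20.4% of all genes tested. Mir132, induced by neuronal activity, had 10 to 18 reads in ELS and 6 to 18 in control libraries. Its neighbour and seed partner Mir212 had 6 to 12 reads in ELS and 5 to 27 in control libraries, where control replicate 5 alone had 27. Their log2 fold changes were 0.39 ± 0.27 and -0.12 ± 0.40.

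The let-7 family, which restrains proliferation in many tissues, had 7 loci listed by symbol with 246 reads in all, 3 higher and 3 lower among the 6 tested. Of the higher ones, Mirlet7f1 (14 reads) is let-7 by symbol only. Its only annotated mature strand is miR-3596d, without the shared let-7 seed. It lies opposite the gene that holds Mirlet7d and Mirlet7a1 on their own strand. Mirlet7b led with 5 to 13 reads in ELS and 2 to 18 in control libraries (0.38 ± 0.52). Of 5 loci of the 17-92 family of clusters, 4 were tested, 1 higher and 3 lower, none at an unadjusted p under 0.05. Loci linked to other cell types were scarce. Mir219-1, known from oligodendrocytes, had 12 reads in ELS and 11 in control libraries (0.56 ± 0.76). Mir2964 and Mir3065, named after their values were seen, overlap Mir219-2 and Mir338, also known from oligodendrocytes, on the other strand. Mir2964 had 48 reads in ELS and 87 in control libraries (-0.69 ± 0.34, p 0.0707), with 32 of the 87 in control replicate 4. Mir3065 had 23 reads in ELS and 33 in control libraries (-0.52 ± 0.54, p 0.354), with 14 of the 33 in control replicate 4. Groups overlapped at these loci, and their reads cannot be assigned to a partner. Mir126a, on the list as linked to endothelium, lies on the strand opposite Egfl7 and overlaps Mir126b. Its only annotated mature strand is miR-126b. It had 21 reads in ELS and 27 in control libraries (-0.47 ± 0.39), and these too cannot be assigned to a partner. Mir145, known from smooth muscle, had 19 in ELS and 25 in control libraries (-0.31 ± 0.31). The 3 blood and immune loci held 13 reads and were not tested.

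Genes that make and use microRNAs, where measured, each had a smaller SE of the log2 fold change than the median tested locus (0.48). Ago2, Ago3 and Lin28b, at 0.30, 0.31 and 0.34, were above the median of 0.27 for loci with at least 10 reads per library. Of 26 genes on the list, 22 were measured and tested, 9 with a higher and 13 with a lower mean in ELS and a median log2 fold change of -0.03. By limma 0 passed the adjusted threshold. An unadjusted p under 0.05 was found for 8 (2 higher and 6 lower), against 20.4% of all genes tested. Drosha, the nuclear cutter, had 23.5 ± 0.93 RPKM in ELS and 22.6 ± 0.774 RPKM in control libraries (p 0.228). Dicer1, the cytoplasmic cutter, had 4.49 ± 0.463 RPKM in ELS and 5.29 ± 0.279 RPKM in control libraries (-0.24 ± 0.08, p 0.0123, adjusted p 0.159).

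Ran, the GTPase of the step that exports precursors from the nucleus, had the lowest p. Its levels were 101, 104, 107, 106 and 105 RPKM in ELS libraries, against 96.6, 95.3, 94.4, 82.9 and 97.9 RPKM in control libraries, with no overlap and control replicate 4 the lowest (0.17 ± 0.05, p 0.00575, adjusted p 0.135). Ago2, the Argonaute that can cut its target, had 2.80, 5.59, 1.48, 2.60 and 2.56 RPKM in ELS libraries, against 5.67, 6.48, 3.58, 6.72 and 5.40 RPKM in control libraries. ELS replicate 2 lay within the control range and the other ELS libraries below it (-0.96 ± 0.30, p 0.00875, adjusted p 0.145). Tnrc6b, a scaffold that links Argonaute to silencing, had 4.90, 6.25, 4.10, 4.25 and 4.63 RPKM in ELS libraries, against 6.34, 6.34, 5.54, 5.86 and 6.42 RPKM in control libraries. Again only ELS replicate 2 of the ELS libraries reached the control range (-0.35 ± 0.11, p 0.0088, adjusted p 0.146).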

How the data were processed

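Libraries of polyadenylated RNA from rat prefrontal cortex were compared. Per the submitters' processing notes, STAR and featureCounts were used with build rn6. Versions, strand setting, handling of reads at feature edges and annotation are not stated in these sources. The deposited table holds RPKM-type values from the authors (whether RPKM or FPKM is not stated), scaled by library total and gene length. Whole reads, model lengths and totals were recovered from the value steps for 16015 genes, with a tolerance of 0.002 reads. Mir146b, with reads in 1 library, has an uncertain length. ELS was compared with control on log2(RPKM + 0.1) for genes with at least 0.5 RPKM in 5 libraries, with limma 3.58.1 (trend, robust, two-sided) in R 4.3.3 and Benjamini-Hochberg adjustment over all genes tested. The pseudocount shrinks fold changes of loci with low values above 0 in every library. Where some libraries are at 0, it leaves them very low on the log scale, which can enlarge a fold change or turn its sign. Mir345 had means of 1.26 RPKM in ELS and 0.389 RPKM in control libraries at a log2 fold change of 2.36. Mir541 had 2.46 RPKM in ELS and 1.81 RPKM in control libraries at -0.22. Counting error limits loci of few reads.

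Members and lists were chosen with earlier results of these data known. Named loci are the 10 with most reads, the 5 lowest p in each direction, the 5 highest mean RPKM, copies of these, the loci beside the filter and host genes. The processing list contributes its 3 lowest p. Others were named after their values were seen. Hosts are RefSeq genes (GRCr8) whose span holds the locus; no coordinates are given, since the builds differ, and exon or intron position was not analysed here. The fit was tested on simulated counts in which only genes with many reads were changed, so that test does not cover most of the microRNA loci.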

Additional observations from a re-analysis of the deposited data

Results flagged for a closer look

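Groups of 5 libraries were checked for a library far from the other 4. There were 42 groups over the 21 named loci and 2 over the summed reads of all loci without Mir770. Of these, 6 were flagged, all at named loci. Chance flags about 1 in 20 groups of normally spread values. That rate does not carry over to loci of a few whole reads, so the 6 are not read as an excess. At Mir568, control replicate 4 had 95.2 RPKM, against 24.0 to 32.6 RPKM in the other control libraries. At Mir3064, control replicate 3 had 33.9 RPKM, against 22.1 to 24.8 RPKM in the others. At Mir138-1, control replicate 1 had 2.97 RPKM, against 5.65 to 6.62 RPKM. At Mir7a-2, control replicate 5 had 0.535 RPKM, against 2.83 to 3.61 RPKM. The remaining cases are single reads: at Mir103a2, ELS replicate 3 was at 0 RPKM while the other ELS libraries had 0.554 to 0.617 RPKM, and at Mir7578, ELS replicate 5 was at 0 RPKM while the others had 0.581 to 0.647 RPKM.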

How the results depend on the processing

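Leaving out each library in turn gave 0 to 440 genes called over all genes tested, with 440 without ELS replicate 2, 1 without ELS replicate 5 and 0 otherwise. The microRNA loci called were 0 to 2 (Mir186 and Mir2985, both lower, without ELS replicate 2), loci with an unadjusted p under 0.05 numbered 7 to 11, and the median log2 fold change of the loci was -0.12 to 0.03. limma-voom with sample weights called 933 genes and 2 loci (Mir186 and Mir770). Without ELS replicate 2 and control replicate 4 together there were 1071 genes and 3 loci (Mir186, Mir2985 and Mir770). Loci with an unadjusted p under 0.05 by limma numbered 15 with no filter and 4 with a mean of at least 10 reads, where fewer loci are tested. The share of all genes at these 2 filters is not reported here, so these counts are not read as a result. The cause of the other shifts was not tested. With the replicate block there were 0 genes called, 9 loci with an unadjusted p under 0.05 by limma and a log2 fold change of -0.93 for Mir186. Deviations from the group means correlated at -0.08 to 0.07 between same-numbered samples. These values show no sign of pairing but cannot exclude it, and the labels do not say whether the numbers pair samples.

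Of 346 values of 20 named loci under 18 settings, 325 kept their direction and side of the threshold, 7 crossed it and 14, at 6 loci, changed sign, none of which had passed. With sample weights these were Mir138-2 at -0.10, Mir7578 at -0.13 and Mir138-1 at 0.0311. Over replicates left out, the ranges were -0.12 to 0.23 for Mir138-2, -0.35 to 0.0355 for Mir138-1, -0.12 to 0.14 for Mir3597-2, -0.36 to 0.00693 for Mir3597-1 and -0.15 to 0.0285 for Mir3064. Depth limits the loci with few reads most.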
